A study of Mus musculus with 12 samples.

Results

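Acyl-CoA thioesterases cut acyl-CoA into free fatty acid and coenzyme A, and so set how much activated acyl-CoA each compartment of the cell holds. In the mouse a run of close paralogues on chromosome 12 sends highly similar enzymes to different places: ACOT1 to the cytosol, ACOT2 to mitochondria, and ACOT3, ACOT4, ACOT5 and ACOT6 to peroxisomes. The type II enzymes ACOT8 (peroxisome), ACOT12 (a cytosolic enzyme that acts on acetyl-CoA) and ACOT13 (associated with mitochondria) are encoded elsewhere and have unrelated coding sequences. In liver several of these genes are known targets of PPAR alpha, the nuclear receptor that responds to fatty acids.

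The 9 genes Acot1, Acot2, Acot3, Acot4, Acot5, Acot6, Acot8, Acot12 and Acot13 were taken by symbol from the 55450 genes of each table. They were chosen with their measured values in both comparisons known, so their fold changes and calls are given as a description, without p values. RNA-Seq libraries of primary mouse hepatocytes fell into 4 groups of 3. KO hepatocytes came from Cebpa fl/fl mice in which Cre under the albumin promoter deleted Cebpa, and WT hepatocytes carried the same floxed alleles without that deletion. OE hepatocytes received an adenovirus that expresses mouse Cebpa, and GFP hepatocytes an adenovirus that expresses green fluorescent protein. The labels call the libraries biological replicates without saying whether they came from separate mice or cultures, so p values may measure no more than spread between preparations. The labels give no length of virus exposure. In the paper's mRNA and protein assays with such viruses the primary hepatocytes were wild-type, and these libraries are not named there. The study used male mice. Because the KO and WT experiment and the OE and GFP experiment differ in virus, culture and preparation, a difference in level between WT and GFP cannot be told apart from these.

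CEBPA binds DNA as a basic leucine zipper dimer, and the targeted gene followed its labels. Cebpa had 0.963, 0.257 and 0.164 CPM (counts scaled to library size by TMM) in KO libraries, against 309, 229 and 290 CPM in WT libraries. The log2 fold change was −9.23 ± 0.51 (SE, adjusted p = 8.37e-04, edgeR quasi-likelihood test). In OE libraries it had 13292 to 14079 CPM, against 48.0 to 54.3 CPM in GFP libraries (log2 fold change 8.07 ± 0.06, adjusted p = 5.09e-19). Library totals were 20160081 to 23304230 expected counts. Mitochondrially encoded genes took 0.875% to 1.03% of counts in OE and 1.58% to 1.76% in GFP, and 5.94% to 6.88% in KO and 5.95% to 6.92% in WT, and the part of this in the members' values was not tested. The summed CPM of 10 hepatocyte markers was 135943 to 168878 in KO and 125172 to 131891 in WT, and 13961 to 14662 in OE and 36225 to 37186 in GFP.

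Acot2, Acot1, Acot4, Acot3, Acot5 and Acot6 lie in that order, all on the plus strand, within 123.5 kb (mm10, chr12:83987861-84111349). Acot2 (ENSMUSG00000021226.7) spans chr12:83987861-83993873, Acot1 (ENSMUSG00000072949.6) chr12:84009490-84018371 and Acot4 (ENSMUSG00000052392.5) chr12:84038379-84048601. Acot3 (ENSMUSG00000021228.15) spans chr12:84052144-84060402, Acot5 (ENSMUSG00000042540.12) chr12:84069325-84076020 and Acot6 (ENSMUSG00000043487.4) chr12:84100654-84111349. Outside the run, Acot13 (ENSMUSG00000006717.7, chr13:24817948-24831540) and Acot8 (ENSMUSG00000017307.16, chr2:164792765-164804882) are on the minus strand, and Acot12 (ENSMUSG00000021620.4, chr13:91741512-91786148) is on the plus strand. All 9 are annotated as protein coding.

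The run's coding sequences are close enough that reads can be shared between genes. Acot1 and Acot2 were 95.6% identical over their aligned coding bases, and Acot3 and Acot5 were 85.4% identical. The lowest identity in the run was 73.8%, between Acot4 and Acot5. Of all 50-base words in the annotated transcripts, 27.6% of those of Acot2, 22.1% of those of Acot5, 18.4% of those of Acot1 and 7.6% of those of Acot3 occurred in another member. For Acot4 and Acot6 the shares were 4.2% and 3.5%, and for Acot8, Acot12 and Acot13 they were 0. RSEM, the program that made the tables, divides shared reads by estimation, so the split between near-identical members is uncertain. Sums over Acot1 to Acot6 and over Acot1 and Acot2 are therefore given as well. Acot3 and Acot4 also overlap the read-through gene Gm49366, which had between 0 and 5.71 counts in every library, and the antisense gene 4732463B04Rik on the minus strand.

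The 250 bases before the RefSeq start site are shown for Acot5 and Acot3, which had the largest log2 fold changes of the 9 genes between OE and GFP, and for Acot1, which had the largest share of the run's transcripts in WT. They are from GRCm38.p6, plus strand, at chr12:84069074-84069323, chr12:84051894-84052143 and chr12:84009252-84009501. Capitals mark matches to the C/EBP core TTNNGNAA on either strand.
Acot5: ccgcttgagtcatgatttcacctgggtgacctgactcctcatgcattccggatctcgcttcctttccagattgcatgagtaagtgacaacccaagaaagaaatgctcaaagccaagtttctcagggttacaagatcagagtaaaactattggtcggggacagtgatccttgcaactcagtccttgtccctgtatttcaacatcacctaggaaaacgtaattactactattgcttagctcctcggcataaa
Acot3: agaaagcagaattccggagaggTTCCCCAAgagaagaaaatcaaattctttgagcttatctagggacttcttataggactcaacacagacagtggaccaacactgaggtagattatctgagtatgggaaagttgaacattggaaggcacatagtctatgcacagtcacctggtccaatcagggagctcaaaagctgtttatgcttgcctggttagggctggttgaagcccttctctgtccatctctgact
Acot1: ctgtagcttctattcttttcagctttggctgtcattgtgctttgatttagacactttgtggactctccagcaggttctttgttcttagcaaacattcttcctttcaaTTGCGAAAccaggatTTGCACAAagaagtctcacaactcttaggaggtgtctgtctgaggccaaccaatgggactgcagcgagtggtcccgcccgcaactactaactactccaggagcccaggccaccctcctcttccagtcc
Windows of 250 bases before to 50 bases after the start were found for 7 of the 9 members (all but Acot6 and Acot13). The C/EBP palindrome TTGCGCAA occurred in 0 of 7 windows, and in 0.183% of 32851 windows genome-wide. The core TTNNGNAA, of which the palindrome is a special case, occurred in 4 of 7 windows, against 40.7% of windows genome-wide. Its first base lay at −143 and −128 in Acot1, at −228 in Acot3, at −238 and −77 in Acot4 and at 1 in Acot8, counted from the start site. The Acot5, Acot2 and Acot12 windows held no match. The AGGTCA direct repeat with a spacer of 1 base that PPAR alpha binds with RXR was found in 0 of 7 windows (0.0396% genome-wide), and the form AGGNCA with that spacer also in 0 (0.381% genome-wide).

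In OE hepatocytes the peroxisomal members Acot5 and Acot3 were at high levels, against a few counts per library in GFP hepatocytes. Acot2 and Acot1 were also higher, by smaller factors, and Acot12 and Acot13 were lower. Called at an adjusted p under 0.05, 6 of the 9 members tested were higher and 2 were lower in OE. Among all 14889 genes tested, 43.9% were called higher and 42.7% lower, so being called says little about a gene in this comparison, and the sizes carry the description. The 3 OE libraries lay wholly above the 3 GFP libraries for 6 members (44.1% of all genes) and wholly below them for 2 (42.9%).

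Acot5, a peroxisomal medium-chain acyl-CoA thioesterase, had 1604, 1602 and 1523 CPM in OE libraries, against 0.199, 0.0940 and 0.154 CPM in GFP libraries. The GFP values rest on 4, 2 and 3 counts. Summed over each group, 106915 counts in OE stood against 9 in GFP, a ratio of 11752 per total count (95% exact interval 6190 to 25701, counting error only). Its fitted log2 fold change was 13.32 ± 0.08 in edgeR, the 10th largest of the genes tested, and 13.41 ± 0.48 in DESeq2. With 9 counts in GFP, the counting interval is the better guide to its error than the SE of edgeR. By TPM, the scale that allows for gene length, Acot5 ranked 32, 34 and 33 among all genes of the OE libraries, with 2223, 2230 and 2156 TPM.

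Acot3, a peroxisomal long-chain thioesterase next to Acot5, had 795, 823 and 759 CPM in OE libraries, against 0.149, 0.188 and 0.257 CPM in GFP libraries. The summed counts were 53744 in OE and 12 in GFP, a ratio of 4430 per total count (95% exact interval 2536 to 8575). The fitted log2 fold change was 11.93 ± 0.08 in edgeR, the 19th largest, and 12.01 ± 0.42 in DESeq2. With 12 counts in GFP, the counting interval is again the better guide to its error than the SE of edgeR. The antisense gene 4732463B04Rik, named after its values were seen because it overlaps Acot3 and Acot4, had 27, 31 and 22 counts in OE against 1, 1 and 0 in GFP (log2 fold change 4.94 ± 0.54, adjusted p = 8.16e-07, edgeR). Whether the counting used strand is not given in the sources used here, so without it reads of the antisense gene and of its partners cannot be told apart. Its counts were small beside those of Acot3, which had 16149 to 19267 per OE library.

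Acot2, the mitochondrial member, had 325, 318 and 308 CPM in OE libraries, against 50.4, 56.1 and 51.0 CPM in GFP libraries (log2 fold change 2.59 ± 0.04). Acot1, its cytosolic near-copy, had 39.4, 40.7 and 44.0 CPM in OE against 8.30, 10.2 and 8.47 CPM in GFP (2.20 ± 0.08). Summed, Acot1 and Acot2 had 358 ± 5.81 CPM in OE and 61.5 ± 4.15 CPM in GFP (SD, n = 3 each), a log2 fold change of 2.54 ± 0.04 that does not depend on how reads were split between them. The sum can still depend on how reads shared with Acot3 and Acot5 were divided. As the tables divide the reads, both genes were higher in all OE libraries, by 4.59-fold for Acot1 and 6.03-fold for Acot2. The value of Acot1 alone depends on that division, since its paralogues Acot2, Acot3 and Acot5 were far more abundant in OE.

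Acot4, which in the mouse encodes a peroxisomal thioesterase for succinyl-CoA and other dicarboxylic acyl-CoAs, had 24.97, 24.6 and 23.1 CPM in OE libraries, against 12.7, 12.5 and 10.99 CPM in GFP libraries (log2 fold change 1.01 ± 0.07). RSEM's mean transcript length for Acot4 was 3461 to 4343 bases in OE and 4268 to 5684 bases in GFP, and by mean TPM the log2 ratio was 1.73. Length is not the whole of such gaps, since Acot2 kept 2196 bases and moved from 2.59 in CPM to 2.91 by mean TPM. Acot6, the last gene of the run, had 8.21, 7.91 and 7.57 CPM in OE against 5.76, 7.52 and 6.26 CPM in GFP (0.28 ± 0.11). The lowest OE library and the highest GFP library of Acot6 were nearly equal, and its call was lost with DESeq2, in the fit of all 12 libraries and without GFP1, GFP3, OE1 or OE2. The peroxisomal members therefore spanned the run's whole range of change, with Acot6 at the low end and Acot5 at the high end.

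The members outside the run did not follow it. Acot12, the cytosolic enzyme acting on acetyl-CoA, had 8.87, 9.34 and 9.92 CPM in OE libraries, against 39.1, 43.6 and 40.5 CPM in GFP libraries (log2 fold change −2.13 ± 0.07, and −1.49 by mean TPM, with a mean transcript length of 2318 to 2780 bases in OE and 3002 to 3058 bases in GFP). Acot13, which acts on long-chain acyl-CoA, had 20.3, 19.4 and 19.8 CPM in OE against 44.9, 41.9 and 45.5 CPM in GFP (−1.15 ± 0.05, and −0.86 by mean TPM at nearly equal length). Acot8, a peroxisomal enzyme of broad substrate range, had 11.97, 12.5 and 12.6 CPM in OE and 9.64, 12.6 and 10.99 CPM in GFP, groups that overlapped (0.15 ± 0.10, not called). Acot8 was called higher with library totals in place of TMM (0.29), where the median of all genes moved to 0.14, on TPM (0.44 and 0.46) and without GFP2 (0.25). Every member had a higher ratio of OE over GFP by mean TPM than in CPM. The ratio of all genes by TPM is not given here, so this is not read as a trait of the members. Acot8 is peroxisomal like Acot3 and Acot5, so the large changes were not shared by every peroxisomal thioesterase.

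**Figure D1:**
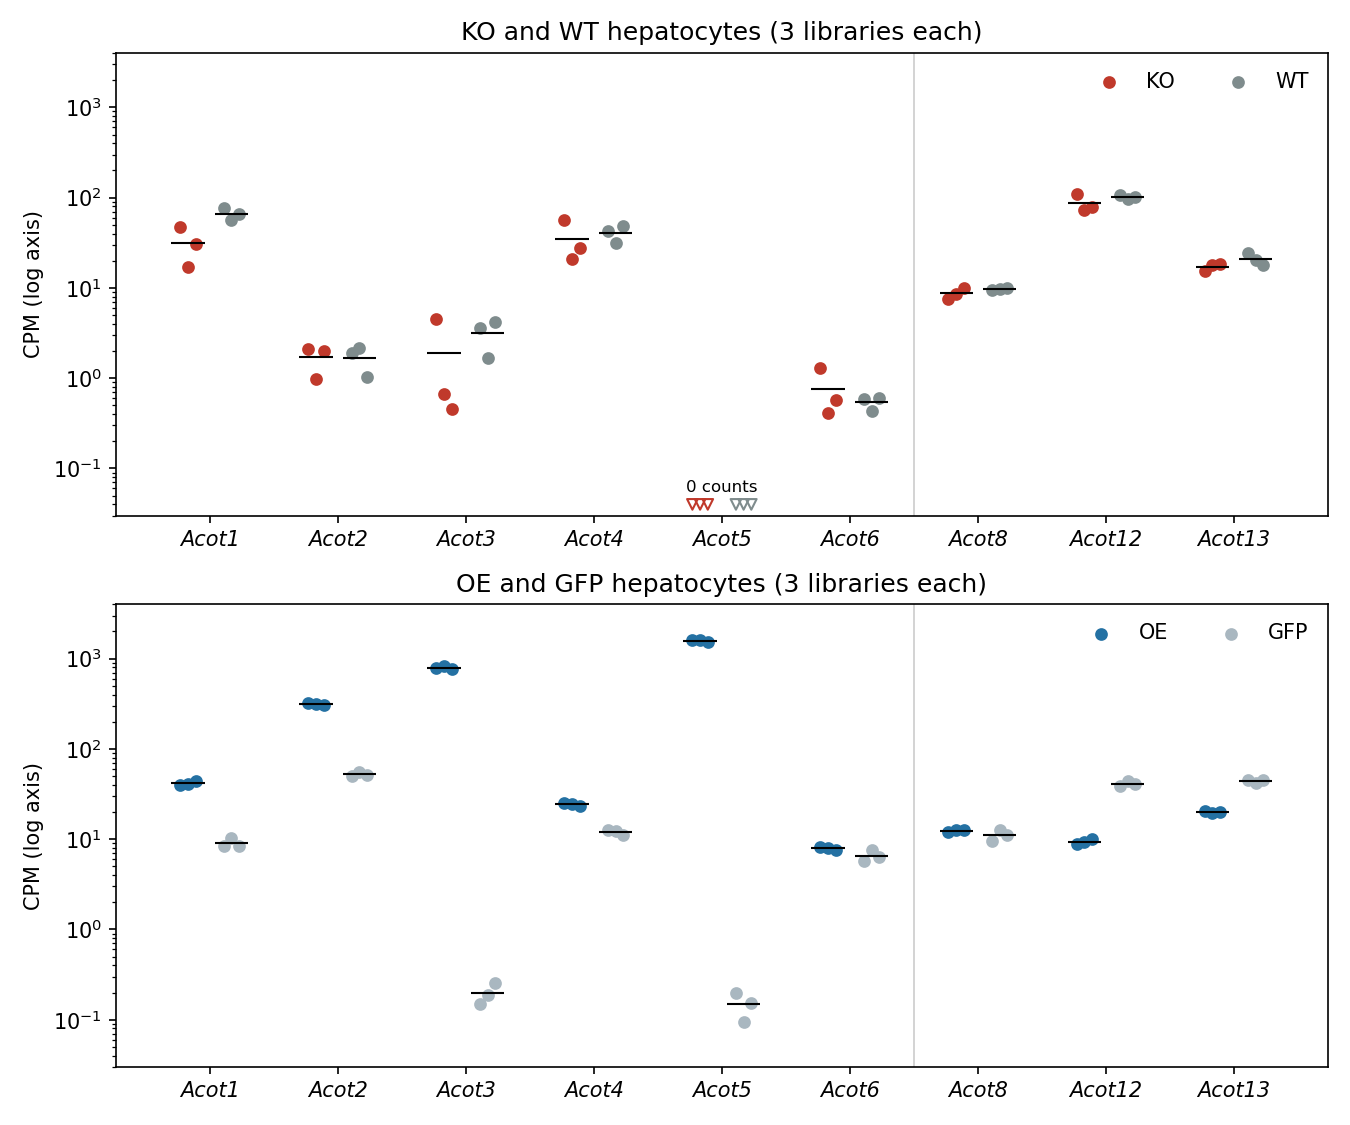
Level of each member in every library, in TMM-scaled CPM on a log axis, for KO and WT hepatocytes (top) and OE and GFP hepatocytes (bottom). Points are libraries, black lines are means of 3, open triangles mark 0 counts and the vertical line divides the chromosome 12 run from the other members. Acot5 lies at 1523 CPM or more in the OE libraries and at 0.199 CPM or less in the GFP libraries, and has 0 counts in the KO and WT libraries.

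In KO hepatocytes no member was called in either direction. Of 8 members tested, 0 were higher and 0 lower, where 0.692% of the 11846 genes tested were called higher and 1.02% lower in edgeR. At an unadjusted p under 0.05, 1 of the 8 passed, Acot1, and the share of all genes at that level is not given here. DESeq2 also called Acot1, among 625 genes in all, against 203 in edgeR. Acot1 was chosen with these values known, so these calls are a description. On the CPM scale Acot1 was the member whose libraries did not overlap, all 3 KO libraries lying below all 3 WT libraries, as for 10.4% of all genes. For no member did all 3 KO libraries lie above the WT libraries (9.66% of all genes).

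Acot1 had 46.8, 16.9 and 30.9 CPM in KO libraries, against 76.5, 56.2 and 66.7 CPM in WT libraries. The highest KO library was thus below the lowest WT library. The log2 fold change was −1.07 ± 0.34, and it ranged between −1.48 and −0.77 when each library was left out in turn. Acot1 was called lower by DESeq2 and in the fit of all 12 libraries (−1.08 in each). Those fits called 625 and 1205 genes in all, against 203 in the main edgeR test. Summed with Acot2 it had 33.3 ± 15.5 CPM in KO and 68.2 ± 10.02 CPM in WT (SD, n = 3 each), a log2 fold change of −1.03 ± 0.33 that was not called in edgeR but was called lower by DESeq2 and in the fit of all 12 libraries (−1.04 in each).

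The other members of the run varied more among the KO libraries than the groups differed. Acot3 had 4.57, 0.668 and 0.452 CPM in KO, against 3.57, 1.68 and 4.19 CPM in WT (log2 fold change −0.74 ± 0.82), and without KO1 the value was −2.50. Acot4 had 55.9, 20.98 and 27.7 CPM in KO against 43.2, 31.4 and 48.0 CPM in WT (−0.23 ± 0.36). In both genes KO1 was the highest library of its group and lay above every WT library. Acot2 had 2.12, 0.977 and 2.01 CPM in KO against 1.88, 2.15 and 1.03 CPM in WT (0.02 ± 0.40). Acot6 had 1.30, 0.411 and 0.575 CPM in KO against 0.595, 0.430 and 0.599 CPM in WT (0.49 ± 0.49). Of the run, KO1 had the highest CPM among the KO libraries for Acot1, Acot2, Acot3, Acot4 and Acot6. Acot5 had 0 counts in all 6 libraries and was not tested, and the limit of 3 counts that a count of 0 allows at about 95% corresponds to 0.129 to 0.147 CPM. The GFP libraries, with 2 to 4 counts of Acot5, lie at about this level.

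Acot12 had 110, 73.3 and 79.4 CPM in KO libraries, against 108, 97.6 and 102 CPM in WT libraries (log2 fold change −0.23 ± 0.16). Acot13 had 15.5, 17.9 and 18.3 CPM in KO against 24.2, 20.5 and 17.8 CPM in WT (−0.27 ± 0.14), and Acot8 had 7.56, 8.64 and 9.94 CPM in KO against 9.52, 9.63 and 9.88 CPM in WT (−0.15 ± 0.13). In these 3 genes the groups overlapped in CPM, while in TPM the KO libraries of Acot13 (38.4, 43.0 and 46.3 TPM) lay below its WT libraries (67.95, 50.03 and 51.1 TPM). Summed over the run, Acot1 to Acot6 had 110.8, 39.95 and 61.6 CPM in KO and 125.8, 91.9 and 120.5 CPM in WT, a log2 fold change of −0.67 ± 0.35 that was not called.

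**Figure D2:**
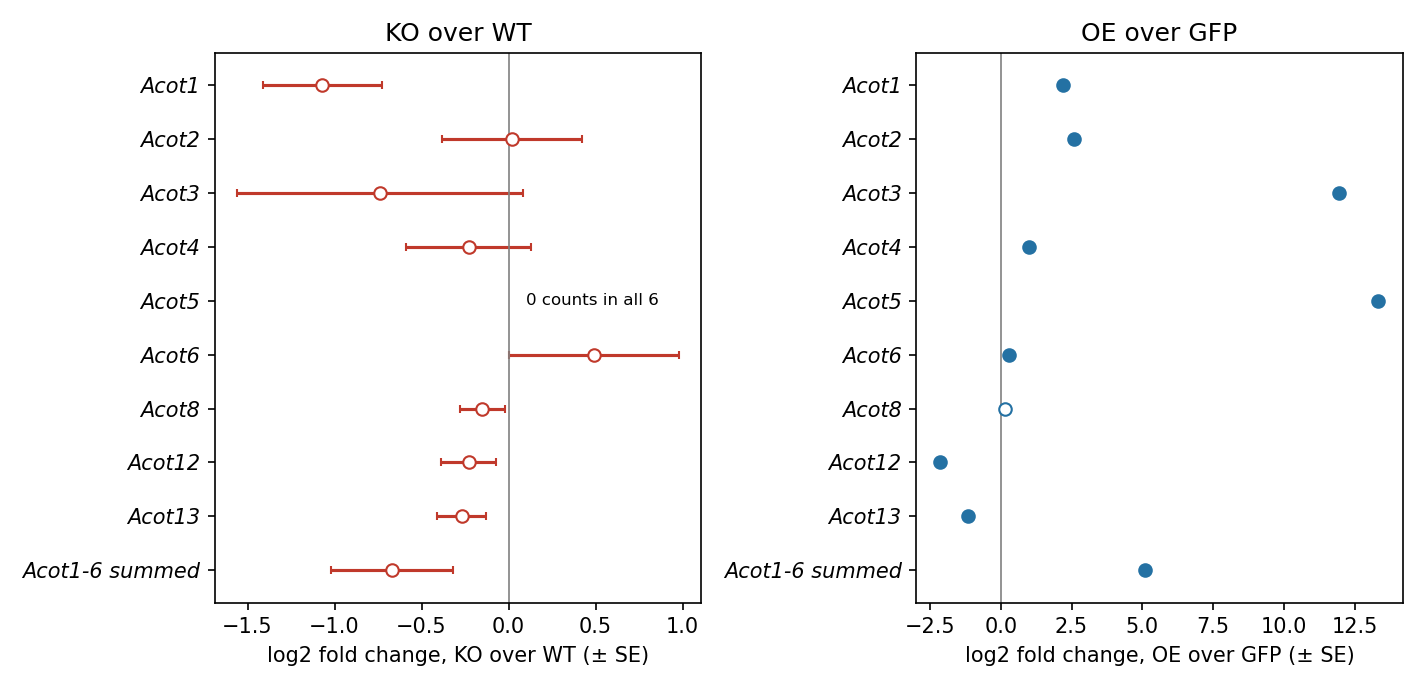
Log2 fold change of each member and of Acot1 to Acot6 summed, KO over WT (left) and OE over GFP (right), with bars of 1 SE that are narrower than the points on the right. Filled points have an adjusted p under 0.05 in edgeR and are shown as a description, since the members were chosen on these values. In OE the values run between −2.13 for Acot12 and 13.32 for Acot5, and the 2 panels have different horizontal scales.

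The shares of the run's transcripts that encode enzymes of each compartment were measured in TPM so that genes of different length can be set side by side. In OE the peroxisomal members Acot3 to Acot6 made up 89.1% to 89.9% of the TPM of Acot1 to Acot6, mitochondrial Acot2 8.45% to 8.70% and cytosolic Acot1 1.65% to 2.28%. In GFP the peroxisomal members made up 11.8% to 13.3%, Acot2 68.0% to 68.6% and Acot1 18.2% to 19.9%. The mitochondrial gene thus led the run in GFP, while Acot5 (65.4% to 66.0%) and Acot3 (23.2% to 23.9%) led it in OE. The run's total was 3358 ± 56.8 TPM in OE and 56.0 ± 3.59 TPM in GFP (SD, n = 3 each). Its summed CPM was 2759 ± 82.4 in OE and 80.4 ± 5.31 in GFP, 34.3-fold higher in OE (log2 fold change 5.10 ± 0.05).

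In KO the cytosolic gene Acot1 led the run with 70.5% to 77.4% of its TPM, and in WT with 82.6% to 87.0%. The peroxisomal members made up 19.5% to 27.5% in KO and 11.1% to 16.6% in WT, nearly all of it Acot4 (17.7% to 22.5% in KO, 9.45% to 12.9% in WT). Acot2 took 1.98% to 3.10% in KO and 0.758% to 1.88% in WT. For each of the 3 compartments the KO and WT ranges did not overlap, but the shares sum to 100, so a lower share of Acot1 raises the others. The levels of Acot2 and Acot4 in CPM overlapped between KO and WT. Acot2 had 19.2 to 50.4 counts per library, beside 329 to 1671 of its near-copy Acot1. Its share therefore depends on how reads were divided between them.

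**Figure D3:**
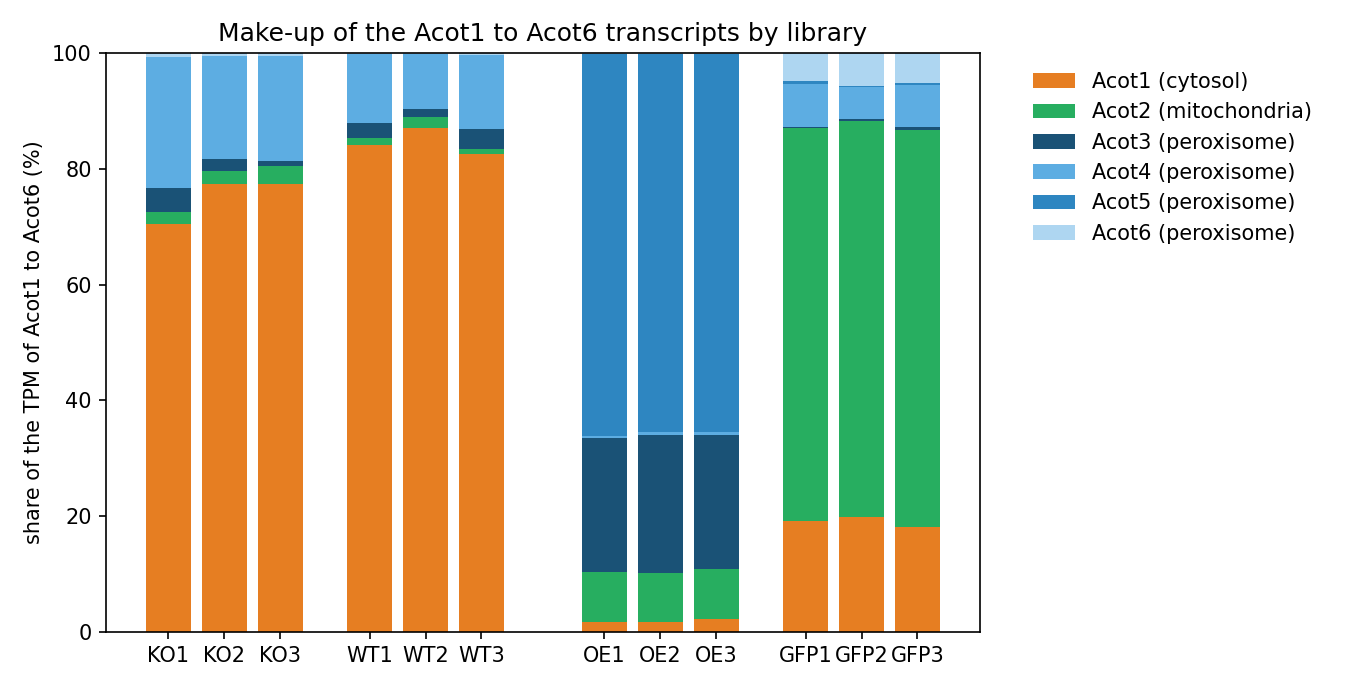
Share of the TPM of Acot1 to Acot6 taken by each gene, in percent, for each library of the KO, WT, OE and GFP groups. Orange is the cytosolic gene, green the mitochondrial gene and the blues are the peroxisomal genes. Acot1 takes 70.5% or more in KO and WT, Acot2 68.0% or more in GFP, and Acot5 with Acot3 most of every OE bar.

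Over all 4 groups the order of levels differed by gene. Acot1 averaged 34.9 ± 14.7 TPM in KO and 77.2 ± 11.4 TPM in WT, and 62.8 ± 10.8 TPM in OE and 10.7 ± 1.11 TPM in GFP (SD, n = 3 each). For Acot1 the OE and WT libraries overlapped, as did no other neighbours in that order. Acot2 averaged 1.13 ± 0.434 TPM in KO and 1.14 ± 0.371 TPM in WT, which overlapped, and 289 ± 4.37 TPM in OE and 38.3 ± 2.49 TPM in GFP. Acot12 averaged 41.0 ± 10.3 TPM in KO and 49.0 ± 4.28 TPM in WT, which overlapped, and 7.54 ± 1.23 TPM in OE and 21.2 ± 1.40 TPM in GFP. Acot13 averaged 42.6 ± 3.94 TPM in KO, 56.4 ± 10.1 TPM in WT, 67.7 ± 1.70 TPM in OE and 123 ± 6.56 TPM in GFP, and its OE and WT libraries overlapped. Acot8 averaged 12.9 ± 1.88 TPM in KO and 14.3 ± 0.577 TPM in WT, which overlapped, and 25.3 ± 1.13 TPM in OE and 18.5 ± 2.41 TPM in GFP. GFP hepatocytes thus had less Acot1 and Acot12 and more Acot2 and Acot13 than WT hepatocytes, a contrast between experiments that was not tested.

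The genes that flank the run moved in both directions in OE, as did all genes tested, of which 43.9% were called higher and 42.7% lower. Of 10 named genes within 250 kb of either end, 8 were tested, 4 rose and 3 fell (median log2 fold change 0.67, all genes 0.01). Counts near those shares say little about the neighbours. Riox1, which encodes a histone demethylase and ribosomal oxygenase and lies before Acot2, had 147.5 ± 4.06 CPM in OE and 19.2 ± 0.679 CPM in GFP (log2 fold change 2.94 ± 0.04, adjusted p = 1.17e-16, edgeR). Elmsan1, a protein of histone deacetylase complexes, had 204.5 ± 3.08 CPM in OE and 46.7 ± 1.21 CPM in GFP (2.13 ± 0.03, adjusted p = 1.63e-16). Numb, an inhibitor of Notch signalling, rose by 0.99 ± 0.03 (adjusted p = 1.42e-12), and Ptgr2, a prostaglandin reductase, fell by 1.19 ± 0.04 on the log2 scale (adjusted p = 3.66e-12). Dnal1, the tested neighbour closest to Acot6, had 5.16 CPM in OE and 7.40 CPM in GFP (−0.52 ± 0.12). In KO, 7 of these genes were tested and 0 were called in edgeR (median 0.05, all genes 0.01), 0 had an unadjusted p under 0.05 and DESeq2 called 0. The lowest adjusted p among them in edgeR was 0.754, for Dnal1.

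**Figure D4:**
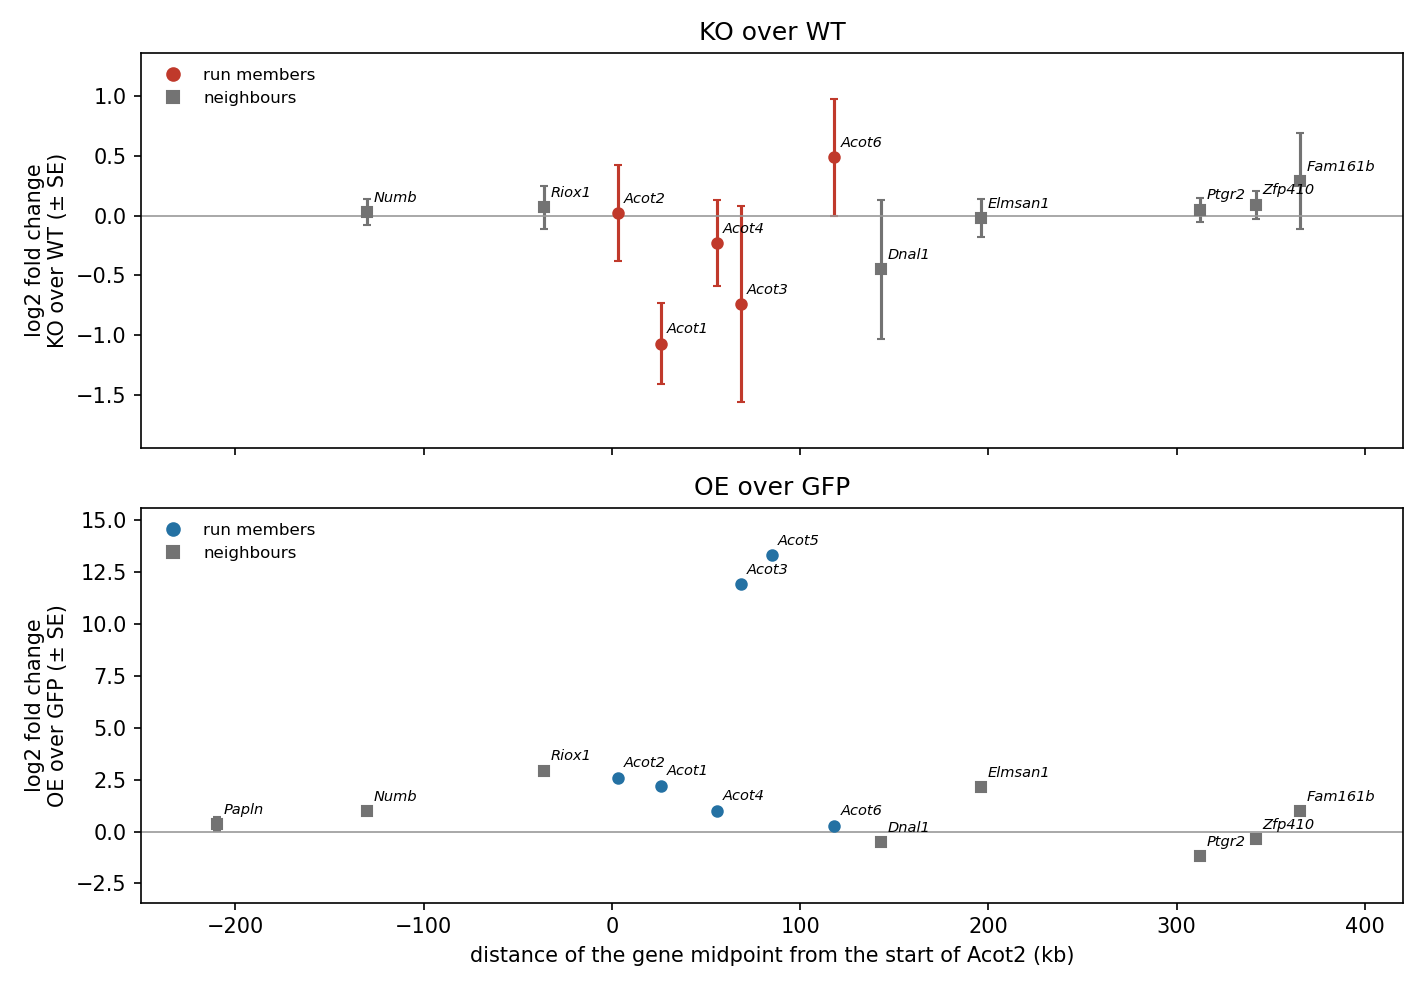
Log2 fold change (± SE) of the run's members (circles) and tested neighbours (squares) by the distance of the gene's midpoint from the start of Acot2 in kb, for KO over WT (top) and OE over GFP (bottom). Acot5, with 0 counts, is not drawn in the top panel. In OE, Acot3 and Acot5 stand at 11.93 and 13.32, and the neighbours lie between −1.19 and 2.94.

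Other thioesterases, listed together with Baat and its relatives, were called lower more often than higher in OE. Of 13 such genes outside the 9, 12 were tested, 3 rose and 8 fell (median log2 fold change −0.65). Among all genes tested, 43.9% rose and 42.7% fell. Baat, which joins bile acids to amino acids and is related to the ACOT1 family in sequence, had 3.84 ± 0.367 CPM in OE and 38.5 ± 1.85 CPM in GFP (−3.32 ± 0.08, adjusted p = 3.10e-14, edgeR). Its relatives Acnat1, which joins fatty acids to taurine in peroxisomes, and Acnat2 fell as well (Acnat1 −2.58 ± 0.08, adjusted p = 4.42e-13, and Acnat2 −2.32 ± 0.07, adjusted p = 1.30e-13). The brain-enriched cytosolic enzyme Acot7 had 44.1 ± 0.307 CPM in OE and 82.6 ± 0.532 CPM in GFP (−0.90 ± 0.04, adjusted p = 5.76e-12). In KO, 0 of 10 tested genes of this list were called in edgeR (median −0.07), 3 had an unadjusted p under 0.05, and DESeq2 called 3 (Them4, Acot11 and Acnat2). Baat had 289 ± 2.15 CPM in KO and 296 ± 3.31 CPM in WT (−0.04 ± 0.09).

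Enzymes that make acyl-CoA, the substrate of the thioesterases, were called higher more often than lower in OE. Of 18 acyl-CoA synthetases tested, 11 rose and 6 fell (median 0.42), where 43.9% of all genes rose and 42.7% fell. Acsm1, a mitochondrial medium-chain synthetase, had 102 ± 6.96 CPM in OE and 3.49 ± 0.253 CPM in GFP (4.87 ± 0.08, adjusted p = 4.09e-16, edgeR), and Acsl1, the main long-chain synthetase of liver, had 244 ± 5.92 CPM in OE and 72.7 ± 2.75 CPM in GFP (1.75 ± 0.03, adjusted p = 2.78e-15). Acsl5 fell (−0.87 ± 0.03, adjusted p = 3.22e-12). In KO, 0 of 16 tested were called in edgeR (median −0.10), 3 had an unadjusted p under 0.05, and DESeq2 called 2 (Acsm2 and Acss3). Acsl1 had 932 ± 176 CPM in KO and 1377 ± 157 CPM in WT (−0.56 ± 0.17, adjusted p = 0.211).

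Targets of PPAR alpha, the group to which several members of the run belong, were mostly lower in OE. Of 27 tested outside the 9 genes, 5 rose and 22 fell (median −1.24), where 43.9% of all genes rose and 42.7% fell. Creb3l3, a liver transcription factor of fasting, fell by 3.71 ± 0.06 on the log2 scale (adjusted p = 6.56e-16, edgeR), and Angptl4, an inhibitor of lipoprotein lipase, fell by 2.85 ± 0.05 (adjusted p = 8.28e-16). The fatty acid transporter Cd36 rose, with 259 ± 13.3 CPM in OE and 42.5 ± 2.49 CPM in GFP (2.61 ± 0.05, adjusted p = 1.21e-15). Acot1 to Acot6 were called higher in OE, as were 5 of the 27 other targets. The part of PPAR alpha in the members' values was not tested. In KO, Aldh3a2, a fatty aldehyde dehydrogenase, was the 1 gene of 26 called, and it fell (46.9 ± 15.1 CPM in KO and 184.5 ± 18.6 CPM in WT, −1.98 ± 0.25, adjusted p = 0.0162). DESeq2 called 8 of the 26, and 625 genes in all.

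Of 10 PPAR receptors, RXR partners and coactivators, with Cebpa, Cebpb and Hnf4a in the list, 5 rose and 4 fell in OE (median 0.25). These counts are near the shares of all genes tested (43.9% higher and 42.7% lower). Ppara itself had 50.6 ± 2.82 CPM in OE and 28.99 ± 1.44 CPM in GFP (0.80 ± 0.06, adjusted p = 4.51e-09, edgeR). Its coactivator gene Ppargc1a rose by 1.62 ± 0.08 (adjusted p = 1.45e-10). Hnf4a, a hepatocyte transcription factor, had 92.4 ± 4.47 CPM in OE and 449 ± 1.65 CPM in GFP (−2.28 ± 0.04, adjusted p = 2.86e-16). In KO the 1 gene of this list called in edgeR was Cebpa, and DESeq2 called Cebpa and Pparg (Pparg −1.29 ± 0.35 in edgeR, adjusted p = 0.158).

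Beta-oxidation, the main use of acyl-CoA, runs in both mitochondria and peroxisomes. In OE, of 18 mitochondrial beta-oxidation genes, 3 rose and 15 fell (median −0.97), with Etfdh (−1.79 ± 0.03, adjusted p = 3.89e-16, edgeR), which passes electrons to the respiratory chain, and Cpt1a (−1.78 ± 0.04, adjusted p = 3.83e-15), which admits long-chain acyl groups to mitochondria, among those that fell. Of 24 peroxisomal beta-oxidation and import genes, 10 rose and 11 fell (median −0.03). The peroxisomal counts are near the shares of all genes tested (43.9% higher and 42.7% lower). Crot, which exports chain-shortened acyl groups as carnitine esters, fell by 1.30 ± 0.03 on the log2 scale (adjusted p = 1.27e-14). The import receptor Pex5 (1.13 ± 0.03, adjusted p = 2.60e-13) and Pex11a, which acts in peroxisome division (1.12 ± 0.04, adjusted p = 1.73e-12), rose. Whether the 2 pathways differed was not tested. In KO, 0 of 18 mitochondrial genes were called in edgeR (median −0.02), 0 had an unadjusted p under 0.05, and DESeq2 called 0. Of 22 peroxisomal genes 0 were called in edgeR (median −0.06), 5 had an unadjusted p under 0.05, and DESeq2 called 3 (Acaa1b, Hacl1 and Pex11a). The shares of all genes by those last measures are not given here, so the counts are a description.

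Coenzyme A, the product released by thioesterases, is built by pantothenate kinases and cut by Nudix hydrolases. Of 14 genes of its synthesis and breakdown, 6 rose and 8 fell in OE (median −0.18), where 43.9% of all genes rose and 42.7% fell. In KO, 0 of 14 were called in edgeR (median −0.12), and 1, Vnn1, had an unadjusted p under 0.05 and was called by DESeq2. Pank3 had 313 ± 3.63 CPM in OE and 105.6 ± 3.80 CPM in GFP (1.57 ± 0.03, adjusted p = 4.43e-15, edgeR), and Pank1 had 50.3 ± 1.44 CPM in OE and 25.7 ± 1.21 CPM in GFP (0.97 ± 0.05, adjusted p = 1.71e-10). Ppcdc, which encodes a decarboxylase of the synthesis pathway, had 5.91 ± 0.915 CPM in OE and 19.8 ± 1.78 CPM in GFP (−1.75 ± 0.11, adjusted p = 1.00e-09), and the Nudix hydrolase Nudt19 had 25.3 ± 0.617 CPM in OE and 41.1 ± 2.09 CPM in GFP (−0.70 ± 0.05, adjusted p = 1.51e-08). Of 10 tested binding proteins for acyl-CoA and fatty acids, 3 rose and 6 fell in OE (median −0.90), and 0 of 9 were called in KO in edgeR (median −0.13), where 1 had an unadjusted p under 0.05 and DESeq2 called 0. Dbi, the acyl-CoA binding protein, had 104 ± 3.03 CPM in OE and 199 ± 2.08 CPM in GFP (−0.94 ± 0.03, adjusted p = 5.21e-13).

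**Figure D5:**
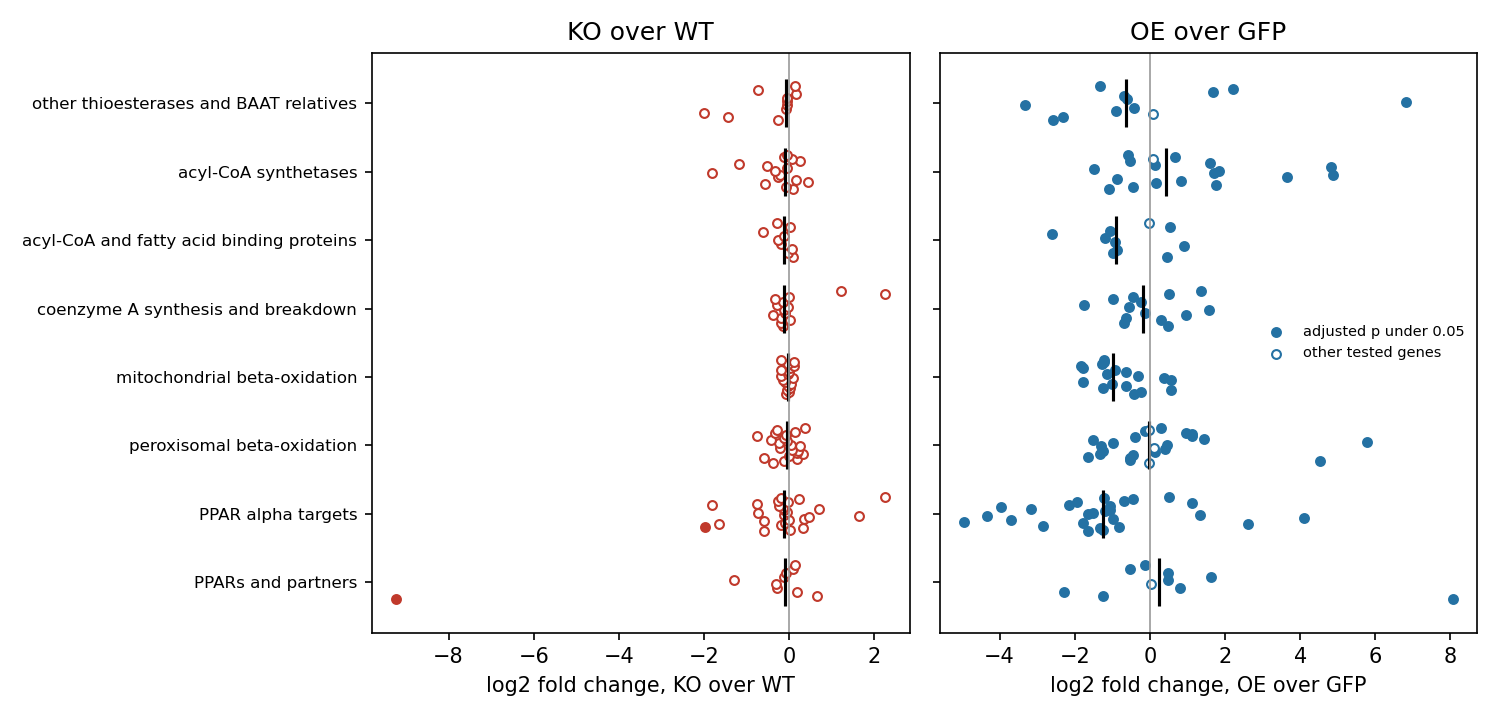
Log2 fold change of each tested gene in 8 lists, KO over WT (left) and OE over GFP (right), with the list's median as a black bar. Filled points passed an adjusted p of 0.05 in edgeR. In KO 2 genes passed (Aldh3a2 and Cebpa), while in OE the medians run between −1.24 for PPAR alpha targets and 0.42 for acyl-CoA synthetases.

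Summed markers of some cell types differed between the groups while others overlapped, and their part in the members' values was not tested. In bulk RNA, fewer cells of a type and less RNA per cell cannot be told apart. Of the hepatocyte list, 2 of 10 genes rose and 8 fell in OE, where 43.9% of all genes rose and 42.7% fell. The 9 stellate cell markers summed to 39.9 to 40.6 CPM in OE and 8.65 to 10.7 CPM in GFP (3 of 4 tested rose), and to 13.5 to 20.6 CPM in KO and 4.64 to 9.67 CPM in WT (1 of 3 tested rose). The 12 macrophage markers summed to 106 to 119 CPM in OE and 125 to 138.5 CPM in GFP, and to 14.0 to 47.8 CPM in KO and 3.71 to 23.2 CPM in WT (0 of 10 tested called in edgeR in KO, 3 at an unadjusted p under 0.05 and 1 by DESeq2). Nearly all of the OE and GFP macrophage sum was Cd68 (110 ± 6.75 CPM in OE, 131 ± 6.44 CPM in GFP, adjusted p = 8.44e-05, edgeR), and Csf1r, the other macrophage marker tested, rose (1.19 ± 0.122 CPM in OE, 0.297 ± 0.107 CPM in GFP, adjusted p = 7.83e-05). Endothelial markers (9 genes) had 36.1 to 37.0 CPM in OE and 35.5 to 39.3 CPM in GFP, and 16.7 to 36.8 CPM in KO and 15.6 to 26.9 CPM in WT. Bile duct markers (7 genes) had 41.7 to 45.5 CPM in OE and 24.5 to 27.8 CPM in GFP, and 20.5 to 24.7 CPM in KO and 16.1 to 18.7 CPM in WT. Adipocyte markers (7 genes, with Adipoq and Cfd at 0 in OE and GFP) had 22.04 to 24.7 CPM in OE and 46.8 to 48.9 CPM in GFP, and at most 0.963 CPM in KO and 1.07 CPM in WT. The OE and GFP adipocyte sums were nearly all Fabp4 (22.8 ± 1.38 CPM in OE and 47.7 ± 1.16 CPM in GFP), the 1 gene of that list tested. Of 9 leukocyte markers, 7 were at 0 in every library, among them Cd3e, Cd79b and Ly6g, and S100a8 alone gave the OE sum of 201 to 239 CPM, against at most 0.188 CPM in GFP.

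By Pearson correlation over the 12 libraries, with log2(CPM + 1) centred within each experiment, the genes whose profile was most like that of Acot1 to Acot6 summed were Eea1 (r = 0.997), Prkacb (0.996), Cramp1l, Hlf and Zfp746 (0.995 each), of 8624 genes. For Acot12 they were Umps (0.997), Atxn7l3 and Fgf1 (0.995 each), Tnk2 and Aldh7a1 (0.994 each). With most genes called between OE and GFP, these values rest mainly on the gap between those groups and are descriptive. Hlf, a PAR leucine zipper factor, had 28.4 CPM in OE and 3.27 CPM in GFP, and 74.0 CPM in KO and 92.4 CPM in WT.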

How the data were processed

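Libraries were prepared from poly(A) RNA with a stranded kit. The submitters' processing notes name Trimmomatic 0.36, STAR 2.5.1, RSEM 1.2.22, Picard 1.84, DESeq2 and the build mm10. The deposited tables hold RSEM expected counts, which are estimated counts not scaled to depth, and TPM, which the authors' RSEM run scaled for transcript length. Whether counting used strand is not given in the sources used here. The mean transcript length in the deposited tables was used as a description.

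Gene identifiers (55450) were all found in GENCODE M21, from which coordinates and coding sequences were taken, and promoter windows came from RefSeq on GRCm38.p6. Members and gene lists were chosen with earlier results of these data known. After rounding of the expected counts, filterByExpr (minimum count 10, minimum total 15) chose the genes, and TMM-scaled libraries were tested in edgeR 4.0.16 by the quasi-likelihood F test, KO with WT and OE with GFP, each in its own 6 libraries. Adjustment was by Benjamini-Hochberg over all genes tested, and calls needed an adjusted p under 0.05. The SE given for edgeR was derived from the F test, as the absolute log2 fold change divided by the square root of F. For Acot3 and Acot5 between OE and GFP, with few counts in GFP, it was far smaller than the SE of DESeq2. Named genes were all members, at most 4 genes per pathway list or of the neighbours with the lowest p in a comparison, and the 5 most similar profiles among genes with a mean of at least 10 CPM. Ppara and Dnal1 in OE, Baat in KO and the markers S100a8, Cd68 and Csf1r lay outside this rule and were named after their values were seen. Some genes that the rule names are not reported here. There were 15 lists, 7 of them cell type markers. Counts of a list at an unadjusted p under 0.05 or called by DESeq2 are given without the share over all genes. They therefore do not show whether a list differs from all genes.

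Alternatives were DESeq2 1.42.0, other size factors, other filters, limma 3.58.1 on TPM, a fit of 12 libraries, a replicate block, each library left out, and the run collapsed to 1 feature. On simulated counts the edgeR steps recovered 48% of 2-fold and 91% of 4-fold changes among 11846 genes for KO and WT (6.71% of calls false), and 84% and 99% among 14889 genes for OE and GFP (5.18% false). The simulation changed far fewer genes than the 12893 called between OE and GFP. Its rates for OE and GFP therefore do not describe that comparison. Replicates differed by more than sampling noise in every pair. Intervals cover counting error only.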

Additional observations from a re-analysis of the deposited data

How the results depend on the processing

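Between KO and WT, 203 genes were called in edgeR, against 625 with DESeq2, 324 without a filter, 91 with a stricter filter, 112 and 103 with limma on log2(TPM + 1) and log2(TPM + 0.1), and 1205 in the fit of all 12 libraries. Leaving out each library in turn gave 42 (without WT1) to 396 (without KO3) genes. No member was called lower in edgeR and 1, Acot1, with DESeq2 and in the fit of all 12 libraries. The direction of Acot2 turned, at −0.02 with library totals, −0.02 and −0.04 with limma on the 2 TPM scales, and between −0.24 and 0.30 with a library left out. That of Acot4 ranged between −0.75 and 0.03, and that of Acot6 between −0.13 and 0.78, with a library left out. The cause was not tested. Between OE and GFP the count of genes called was 9976 to 14595 over the alternatives, against 12893, and no member changed direction. On log2(TPM + 1), a scale that understates changes of genes near 0, Acot3 and Acot5 had 9.38 and 10.88. Collapsing Acot1 to Acot6, or Acot1 and Acot2, changed no call of the other members.

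Libraries with the same number did not deviate together (correlations 0.02, −0.04 and −0.37 for KO and WT, −0.05, 0.05 and −0.06 for OE and GFP). With the replicate number as a block, 87 genes were called between KO and WT and 12816 between OE and GFP, and no member's call changed.

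With 3 libraries a group and a biological coefficient of variation of 20.4% in KO and WT, against 4.04% in OE and GFP, 48% of simulated 2-fold changes were recovered in KO and WT. Levels of Acot3 and Acot5 in GFP rest on 5 or fewer counts per library.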
